A study of Mus musculus with 15 samples.

Results

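The smooth muscle cells of the aortic media contract through actin and myosin filaments, and the genes that encode these filaments are switched on together when serum response factor works with its coactivator myocardin. When the vessel wall is stressed, smooth muscle cells can lower this contractile program and raise matrix and inflammatory genes, a state called modulated. The 10 genes described here are *Acta2*, *Myh11* and *Myl9* for the filament proteins, *Tagln*, *Cnn1*, *Lmod1*, *Smtn* and *Synpo2* for proteins bound to the filaments, and *Myocd* and *Carmn* for regulators. These 10 were chosen by name from the 24982 genes counted, with measured differences between the groups already known, since *Carmn* had been among the genes with the smallest P values between DHT-treated and untreated orchiectomized mice. The values of the 10 genes in that comparison are therefore given as a description with no P values, and counts of their calls in it are no test.

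RNA-Seq was performed on whole aortas of 15 male wild-type C57BL/6 mice (C57BL/6J in the study methods) aged 10 months, with 5 mice per group and 1 library per mouse. Every mouse received Aldo-salt, which is aldosterone at 200 µg/kg/d from a minipump together with 0.9% NaCl and 0.2% KCl in the drinking water, for 7 days after a recovery of 2 weeks from surgery. The control mice were sham operated, the orchiectomized mice had their gonadal androgen source removed, and the DHT mice were orchiectomized and also carried a dihydrotestosterone (DHT) pellet. There was no group without Aldo-salt, and the DHT group had no sham-operated counterpart with DHT. The libraries held between 8268957 and 13816864 reads assigned to genes. Values are CPM, read counts scaled to a common library size and corrected for composition, and a gene was called at an unadjusted P value under 0.01 from edgeR among 14121 genes tested, which included all 10 genes.

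Libraries were not equal in tissue makeup, and orchiectomized replicate 2 stood apart. The 5 cardiac muscle markers (*Myh6*, *Tnnt2*, *Tnni3*, *Nppa* and *Actc1*) summed to 6550 CPM in it against 47.0 to 224 CPM in the other orchiectomized aortas. They summed to 60.8 to 1270 CPM in control and 142 to 801 CPM in DHT aortas, with the highest control value in replicate 5. The same library had the lowest value of its group for all 10 genes. Results that rest on it are given with and without it. The high values of the smooth muscle markers *Acta2*, *Myh11*, *Tagln* and *Cnn1* in every library fit the label of aorta, and the 10 genes together took 1.28% to 2.73% of all gene reads. In whole tissue, fewer smooth muscle cells and less RNA per cell cannot be told apart.

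Many smooth muscle genes carry CArG boxes, the sites of serum response factor, near their start. A CArG box has CC and GG around a core made only of A and T. This pattern, though not each single box, is the same on both strands. RefSeq promoter windows on GRCm38.p6, each from 250 bases before a gene's start to 50 after, were at hand for 6 of the 10 genes (*Acta2*, *Cnn1*, *Lmod1*, *Smtn*, *Synpo2* and *Myl9*). Only *Myl9* held an exact CArG box in its window, and *Acta2* and *Myl9* held boxes in which 1 core base was C or G. Of all 32851 windows, 1.63% held an exact box and 9.98% held a box when 1 such core change was allowed. The *Acta2* fragment lies at chr19:34255394-34255493 on the minus strand, from base -120 to base -21 before the RefSeq start of its window. The GENCODE vM21 span of *Acta2*, chr19:34241090-34255590, starts farther upstream and contains this fragment. The *Myl9* fragment lies at chr2:156775284-156775383 on the plus strand, from base -180 to base -81. Both are shown 5′ to 3′ because they carry the boxes found, which are in capitals.
Acta2: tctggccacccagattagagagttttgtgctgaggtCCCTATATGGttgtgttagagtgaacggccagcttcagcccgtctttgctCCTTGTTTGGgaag
Myl9: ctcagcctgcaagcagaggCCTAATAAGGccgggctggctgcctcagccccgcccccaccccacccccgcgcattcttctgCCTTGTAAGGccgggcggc
Boxes began at bases -84 and -34 of *Acta2* and at bases -161 (exact) and -99 of *Myl9*. These are matches of letters in a short window and show no binding.

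Per kilobase of exon in the control aortas, *Acta2*, smooth muscle alpha-actin, had the highest mean level of the 10 genes at 2534 CPM per kb (range 2186 to 3037). It was followed by *Myl9*, the regulatory light chain of myosin, at 1761 CPM per kb (1308 to 1962) and *Tagln*, the actin-binding protein transgelin, at 1651 CPM per kb (1348 to 1952). *Myl9* and *Tagln* did not differ beyond their spread, and neither reached the lowest *Acta2* value. *Myh11*, the smooth muscle myosin heavy chain, at 631 CPM per kb and *Cnn1*, calponin, at 481 CPM per kb overlapped each other. *Smtn*, smoothelin, at 267 CPM per kb overlapped *Lmod1*, leiomodin, which starts actin filaments, at 188 CPM per kb. *Synpo2*, an actin-bundling protein, stood at 45.1 CPM per kb. On GRCm38 (GENCODE vM21) the highest of them, *Acta2*, lies at chr19:34241090-34255590, *Myl9* at chr2:156775420-156781658, *Tagln* at chr9:45929619-45936058 and *Myh11* at chr16:14194535-14291372. *Myocd* lies at chr11:65176561-65269989. The regulators had the lowest means, with *Carmn*, a long noncoding RNA, at 28.6 CPM per kb (15.6 to 37.5) and *Myocd*, which encodes myocardin, at 15.6 CPM per kb (8.81 to 23.2), and their ranges overlapped. The range of *Synpo2*, 32.01 to 60.9 CPM per kb, also overlapped that of *Carmn*. In the DHT aortas the range of *Carmn*, 42.9 to 64.7 CPM per kb, no longer overlapped that of *Myocd*, 7.64 to 16.8 CPM per kb.

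**Figure D1:**
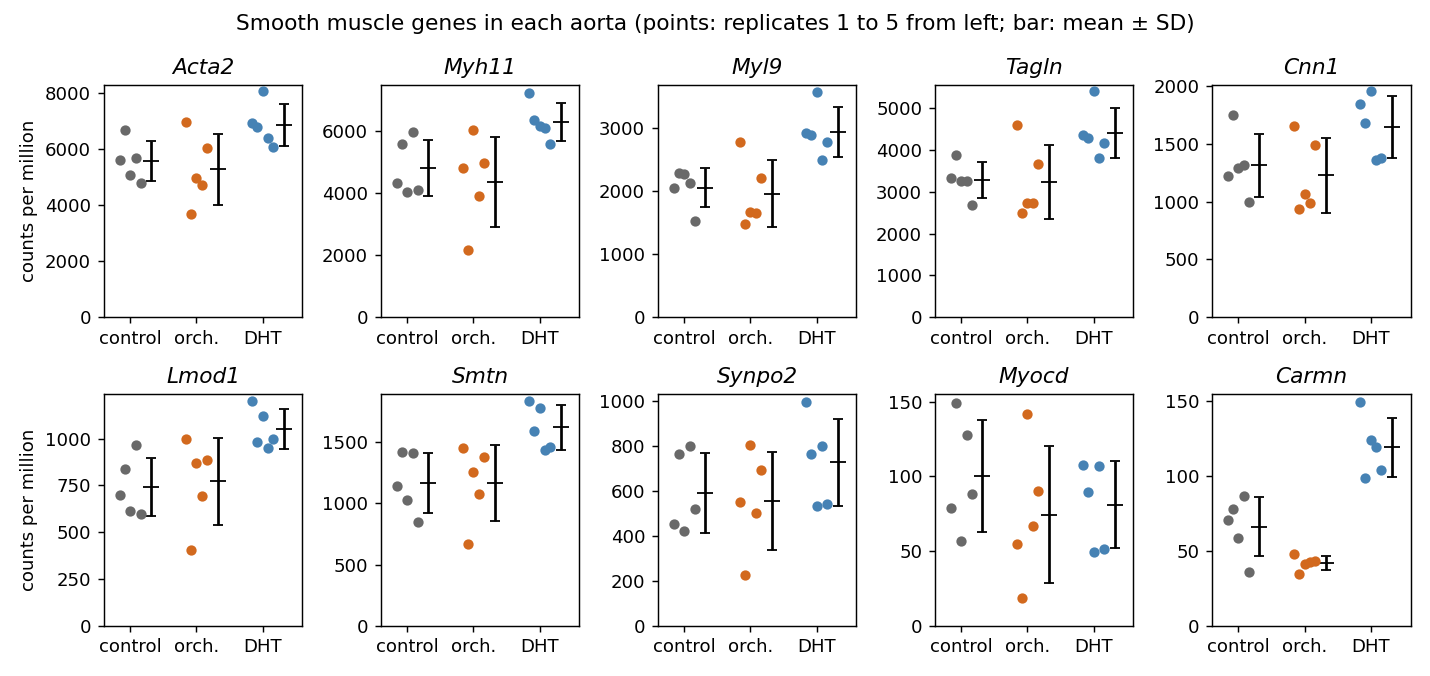
CPM of each of the 10 genes (y axis, linear from 0) in the control, orchiectomized (orch.) and DHT aortas (x axis). Each point is 1 aorta, with replicates 1 to 5 from left to right, and bars give mean ± SD of 5 mice. *Carmn* was the gene whose 5 DHT values all lay above the 5 orchiectomized values, and orchiectomized replicate 2 was the lowest of its group in every panel.

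*Carmn* was the gene of the 10 whose level differed most between groups. It is a spliced noncoding transcript of smooth muscle cells, known as the host of the miR-143 and miR-145 cluster and as a partner of myocardin. In the control aortas it measured 70.7, 78.1, 58.5, 86.3 and 35.9 CPM in replicates 1 to 5. In the orchiectomized aortas it measured 47.7, 34.4, 41.0, 42.5 and 43.0 CPM, a tight group in which all 5 values lay below control replicates 1 to 4, while control replicate 5 fell among them. With DHT it measured 149, 98.8, 124, 119 and 104 CPM, and every DHT aorta was above every other aorta. The means were 65.9 ± 19.7 CPM in control, 41.7 ± 4.78 CPM in orchiectomized and 119 ± 19.96 CPM in DHT aortas (SD, n = 5). These values rest on 389 to 1747 reads per library.

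After orchiectomy *Carmn* differed from the control mice by -0.66 on the log2 scale (standard error 0.19, adjusted P = 0.280 from edgeR), so it was called lower at the unadjusted threshold and did not pass adjustment over all genes. It was the only one of the 10 genes called in this comparison, against 1.13% of all tested genes called lower and 2.08% called higher. *Carmn* was chosen with its orchiectomized values known, so this call is a description. The call was lost without control replicate 2 (adjusted P = 0.382 from edgeR), without control replicate 4 (adjusted P = 0.207 from edgeR) and with limma voom (adjusted P = 0.336). Without orchiectomized replicate 2 the difference was -0.61 (standard error 0.20, adjusted P = 0.543 from edgeR), and the call was kept at the unadjusted threshold.

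DHT in orchiectomized mice was accompanied by a *Carmn* level 2.85-fold higher than in orchiectomized mice without it, a log2 difference of 1.51 (standard error 0.19). Without orchiectomized replicate 2 the log2 difference was 1.47. Compared with the sham-operated control mice, the DHT mice had 1.80-fold more *Carmn* (log2 difference 0.85, standard error 0.19, adjusted P = 0.0878 from edgeR), and *Carmn* kept its call in this comparison in all 15 fits that left out 1 library each. Each group enters 2 of the 3 comparisons of *Carmn*, so the 3 differences are not independent of each other. Its choice rested on DHT and orchiectomized values, which both calls against control use again, so these calls are no separate test.

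*Carmn* lies on chromosome 18 from 61649625 to 61665537 on the minus strand (GRCm38, GENCODE vM21, lincRNA with 4 merged exons). Some of its closest counted neighbours were called higher in DHT than in orchiectomized mice too. Within 100 kb on either side the files count 9 other genes, a window that was set after their values were seen. *Bvht*, a noncoding RNA on the opposite strand 2152 bases away, had the profile most like that of *Carmn* of all tested genes (Pearson's r = 0.98 over 15 libraries and 0.95 after subtraction of group means). *Bvht* measured 33.3, 37.3, 24.0, 38.9 and 17.7 CPM in control, 23.0, 18.1, 19.4, 23.2 and 24.3 CPM in orchiectomized and 67.3, 42.7, 59.0, 46.7 and 43.6 CPM in DHT aortas. As with *Carmn*, its DHT values all lay above both other groups. Its log2 difference between DHT and orchiectomized mice was 1.26 (standard error 0.20, adjusted P value 0.00676 from edgeR), and it was chosen for its likeness to *Carmn*, so this is not separate evidence.

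The miRNA hairpin genes *Mir143* and *Mir145a* lie on the strand of *Carmn*, 366 and 1730 bases from it. Their rows count longer polyadenylated RNA that covers the hairpins, not mature miRNAs, and hold few reads (3 to 36 for *Mir143* and 10 to 88 for *Mir145a* per library). Both were higher in DHT than in orchiectomized mice, by 1.59 (standard error 0.41, adjusted P value 0.0412 from edgeR) and 1.38 (standard error 0.38, adjusted P value 0.0485 from edgeR) on the log2 scale. The adjusted P values were 0.0675 for *Mir143* and 0.0912 for *Mir145a* from edgeR without orchiectomized replicate 2. *Il17b*, a cytokine gene 19349 bases away on the other side, was higher by 1.31 (standard error 0.30, adjusted P value 0.0247 from edgeR). These 4 of the 9 neighbours were called at the unadjusted threshold, beside 2.46% of all tested genes called higher, and each kept that call in all 15 fits that left out 1 library. *Carmn* was chosen with this comparison known and the window after the values were seen, so nothing is read from this count. The casein kinase gene *Csnk1a1*, 59563 bases away, measured -0.05 (standard error 0.10) and *Grpel2*, 46886 bases away, measured -0.13 (standard error 0.10). *Pcyox1l* measured 0.36 (standard error 0.15) and *1500015A07Rik* 0.56 (standard error 0.27), and neither was called. *Afap1l1* lay the other way at -0.89 (standard error 0.36) and was not called. It measured 78.9 CPM in orchiectomized replicate 2 and 18.9 to 23.6 CPM in the rest of its group. In DHT minus control, *Bvht* (0.78), *Il17b* (1.09) and *Pcyox1l* (0.58) were called with adjusted P values of 0.139 to 0.174 from edgeR, beside 1.52% of all tested genes called higher, and after orchiectomy none of the 9 was. The annotated spans of *Carmn*, *Bvht* and the hairpins do not overlap, but whether the counting used strand is not given in the sources used here.

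**Figure D2:**
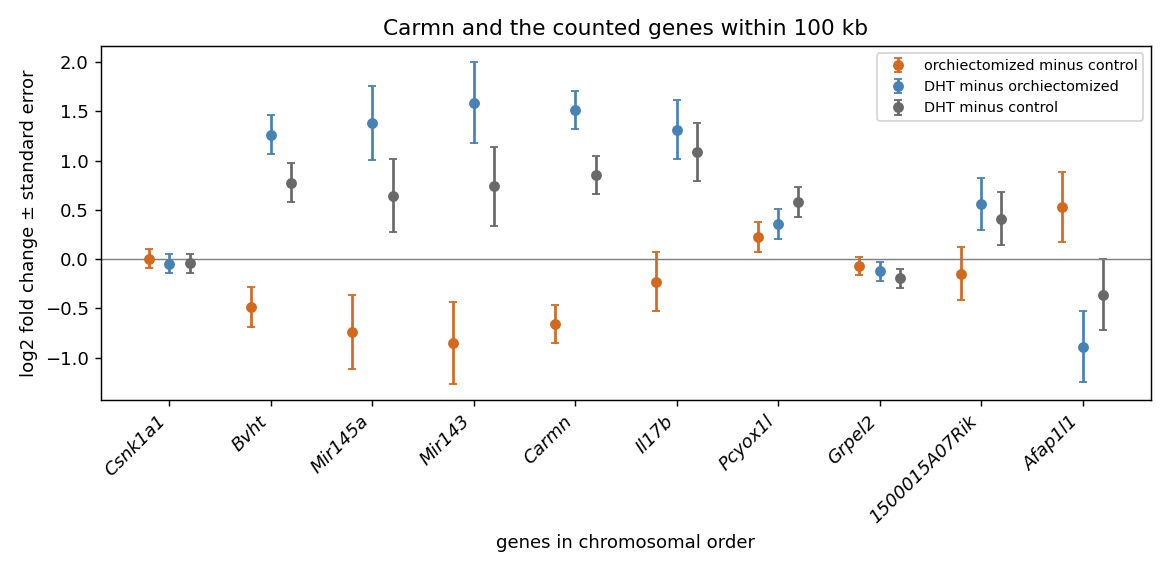
Log2 fold change with its standard error (y axis) of *Carmn* and the 9 counted genes within 100 kb, in chromosomal order (x axis), for the 3 comparisons. *Bvht*, *Mir145a*, *Mir143*, *Carmn* and *Il17b* lay between 1.26 and 1.59 in DHT minus orchiectomized, while *Csnk1a1* and *Grpel2* lay near 0.

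*Myocd*, the coactivator that drives the structural genes, did not follow *Carmn*. It measured 79.2, 149, 56.6, 128 and 88.3 CPM in control, 54.6, 18.7, 142, 66.6 and 90 CPM in orchiectomized, and 108, 89.9, 49.1, 107 and 51.6 CPM in DHT aortas. The 3 groups overlapped widely, and the standard deviation was 61.4% of the mean in orchiectomized and 35.8% in DHT aortas. *Myocd* was not called after orchiectomy (log2 difference -0.43, standard error 0.42, adjusted P = 0.701 from edgeR) or in DHT against control mice (-0.30, standard error 0.42, adjusted P = 0.803 from edgeR). The difference after orchiectomy was -0.20 without orchiectomized replicate 2 and -0.82 without orchiectomized replicate 3, and in DHT against control mice it was -0.12 without control replicate 2. Between DHT and orchiectomized mice it differed by 0.13 (standard error 0.42), by 0.52 without orchiectomized replicate 3 and by -0.11 without orchiectomized replicate 2, and limma voom gave -0.032, so its sign was not fixed. With standard errors of this size the data do not show that *Myocd* was equal between groups. Its paralogs *Mkl1* and *Mkl2*, the other coactivators of the family, were not called in any comparison.

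*Myl9* had the largest difference of the 8 structural genes between DHT and orchiectomized mice. It measured 2050, 2280, 2260, 2120 and 1520 CPM in control, 2770, 1480, 1670, 1650 and 2200 CPM in orchiectomized, and 2910, 2880, 3570, 2490 and 2780 CPM in DHT aortas. Every DHT value was above every control value, and 4 of the 5 were above every orchiectomized value. The log2 difference was 0.58 (standard error 0.18) against orchiectomized mice. Against control mice it was 0.52 (standard error 0.18, adjusted P = 0.296 from edgeR), just outside the unadjusted threshold. Without orchiectomized replicate 2 it passed that threshold (adjusted P = 0.174 from edgeR). After orchiectomy alone *Myl9* differed by -0.06 (standard error 0.18, adjusted P = 0.915 from edgeR).

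The other filament genes had smaller and less certain differences. *Acta2* measured 5600, 6670, 5080, 5670 and 4800 CPM in control, 6950, 3680, 4970, 4720 and 6020 CPM in orchiectomized, and 6940, 6800, 8070, 6390 and 6080 CPM in DHT aortas. *Myh11* measured 4320, 5580, 4040, 5960 and 4090 CPM in control, 4820, 2150, 6020, 3890 and 4960 CPM in orchiectomized, and 7230, 6360, 6160, 6110 and 5580 CPM in DHT aortas. For both genes the groups overlapped, and the orchiectomized group was the most spread (SD 23.8% of the mean for *Acta2* and 33.2% for *Myh11*). DHT minus orchiectomized gave 0.38 (standard error 0.17) for *Acta2* and 0.53 (standard error 0.22) for *Myh11*, and the latter fell to 0.37 without orchiectomized replicate 2. Against control mice neither was called (0.30, adjusted P = 0.501 for *Acta2* and 0.39, adjusted P = 0.509 for *Myh11* from edgeR).

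The 5 genes for proteins bound to the filaments had similar differences. Their log2 differences between DHT and orchiectomized mice ranged from 0.39 for *Synpo2* to 0.48 for *Smtn*. Without orchiectomized replicate 2 the difference was 0.20 for *Synpo2* and 0.30 for *Lmod1*. *Smtn* averaged 1170 ± 246 CPM in control, 1168 ± 310 CPM in orchiectomized and 1624 ± 183 CPM in DHT aortas (SD, n = 5), and its DHT values lay above all control values. *Tagln* averaged 3283 ± 427, 3237 ± 880 and 4411 ± 595 CPM, *Cnn1* 1315 ± 276, 1231 ± 327 and 1646 ± 273 CPM and *Lmod1* 742 ± 156, 772 ± 234 and 1048 ± 105 CPM in the same order. *Synpo2* averaged 590 ± 177, 554 ± 219 and 725 ± 193 CPM and overlapped in all groups. The exons of *Tagln* share 108 bases with *Pcsk7* on the other strand, a gene with 290 to 579 reads per library against 27982 to 51041 for *Tagln*. Against control mice none of the 5 was called, with adjusted P values from 0.373 for *Tagln* to 0.714 for *Synpo2* from edgeR.

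Over all 10 genes, DHT minus orchiectomized was positive for 10, with a median log2 difference of 0.444 beside a median of -0.022 over all genes tested, and it stayed positive for 10 under each scaling of the libraries that was tried. Leaving out orchiectomized replicate 2 gave 9 of 10 positive and a median of 0.350, beside 0.007 over all genes tested. In that comparison 2 of the 10, *Carmn* and *Myl9*, passed the threshold in the higher direction, beside 2.46% of all tested genes called higher and 7.27% called lower, and *Carmn* alone passed an adjusted P value of 0.05. *Myl9* was no longer under the threshold without orchiectomized replicate 3 or 4 or without DHT replicate 1, 2 or 3. Only *Carmn* had groups that did not overlap, beside 2.09% of all tested genes not overlapping and higher and 4.34% not overlapping and lower. Because the genes were chosen with this comparison known, nothing is read from these counts.

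In DHT minus control, 9 of the 10 differences were positive, *Myocd* being the exception, with a median of 0.408 beside -0.003 over all genes tested. *Carmn* was the only gene called, beside 1.52% of all tested genes called higher and 2.01% called lower. *Carmn*, *Myl9* and *Smtn* were higher in all 5 DHT aortas than in all 5 control aortas, beside 1.78% of all tested genes not overlapping and higher and 1.79% not overlapping and lower. Without orchiectomized replicate 2, whose removal changes the shared estimate of the spread, 4 of the 10 were called higher (*Carmn*, *Myl9*, *Lmod1* and *Smtn*), beside 2.26% of all tested genes called higher and 2.54% called lower in that fit. In orchiectomized minus control, the median was -0.085 beside 0.037 over all genes tested, and *Carmn* was the only call. None of the 10 had groups that did not overlap, beside 0.991% of all tested genes not overlapping and higher and 0.517% not overlapping and lower. Only *Lmod1* was positive (0.06), but without orchiectomized replicate 2 7 of the 10 were, and 3 were positive when libraries were scaled by their totals alone. The DHT and orchiectomized groups enter 2 of the 3 comparisons each, and so do the controls. *Carmn* was chosen on DHT and orchiectomized values, so its calls against control reuse them and are a description.

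**Figure D3:**
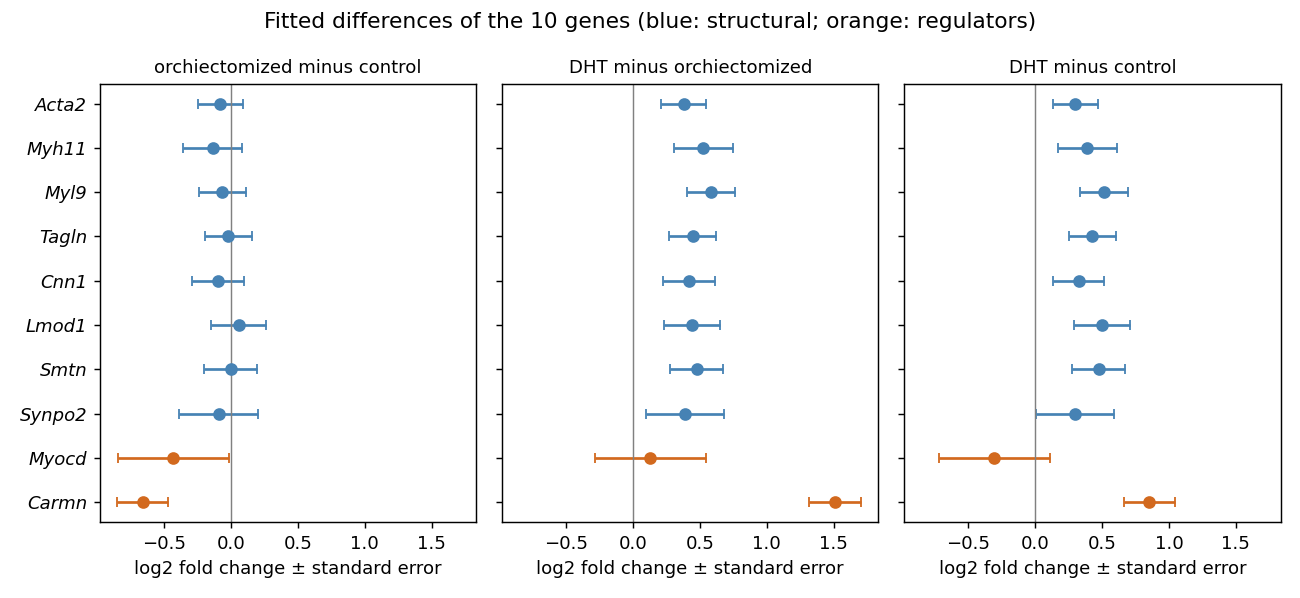
Log2 fold change with its standard error (x axis) of each of the 10 genes (y axis) in the 3 comparisons, in blue for structural genes and orange for *Myocd* and *Carmn*. In DHT minus orchiectomized the structural genes lay between 0.38 and 0.58 and *Carmn* at 1.51, and after orchiectomy *Carmn* lay at -0.66 while the structural genes lay between -0.14 and 0.06.

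*Carmn* differed by more than the structural genes did. On the log2 scale, the level of *Carmn* minus the mean of the 8 structural genes was -4.83 ± 0.31 in control, -5.34 ± 0.27 in orchiectomized and -4.34 ± 0.17 in DHT aortas (SD, n = 5). The lowest DHT value was -4.595 in replicate 2, and the highest orchiectomized value was -4.95 in replicate 2. Control replicates 1 and 4, at -4.594 and -4.582, lay just above that lowest DHT value, so on this scale the DHT and control groups overlapped. The aorta with the least contractile RNA thus had the highest *Carmn* of its group relative to the structural genes. For *Myocd* the same quantity was -4.24 ± 0.40, -4.78 ± 0.83 and -4.96 ± 0.56, and the groups overlapped. *Carmn* was chosen for its difference, so these ratios carry no test.

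**Figure D4:**
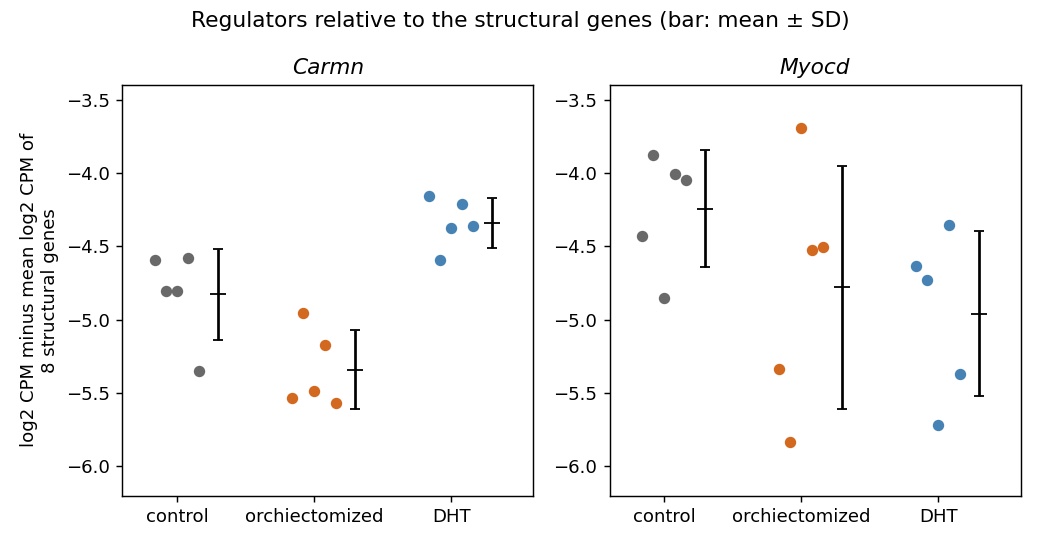
Log2 CPM of *Carmn* and *Myocd* minus the mean log2 CPM of the 8 structural genes (y axis) in each aorta by group (x axis). Points are aortas, replicates 1 to 5 from left to right, and bars give mean ± SD of 5 mice. For *Carmn* the DHT aortas lay between -4.595 and -4.16, above all orchiectomized aortas but not above all control aortas, and for *Myocd* all groups overlapped.

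With the group means subtracted, the 10 genes did not vary as 1 block. *Tagln* and *Myl9* followed each other most closely (Pearson's r = 0.97 over 15 libraries), and with *Acta2* and *Cnn1* they formed a set with r from 0.88 to 0.97. *Myocd* followed *Synpo2* (r = 0.97) and *Myh11* (r = 0.89), but hardly *Myl9* (r = 0.07) or *Tagln* (r = 0.11). *Lmod1* and *Smtn* followed each other (r = 0.97) and stood between. *Carmn* was closest to *Smtn* (r = 0.75) and least close to *Myocd* (r = 0.36). The points are whole libraries that share depth and tissue makeup, so these values describe the libraries and carry no P value.

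**Figure D5:**
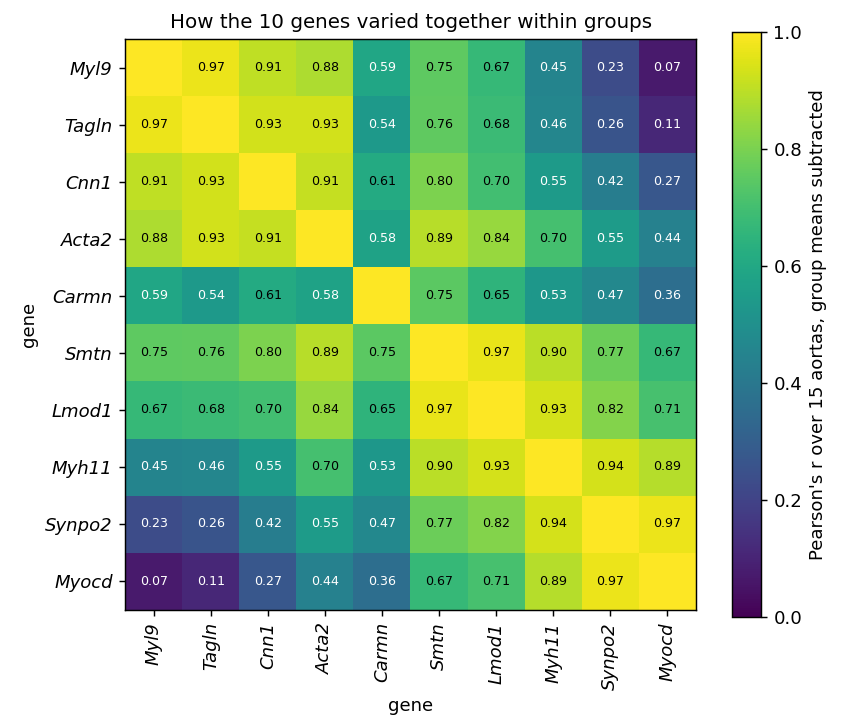
Pearson's r between each pair of the 10 genes (both axes) over 15 aortas after subtraction of group means, as colour and number. *Myl9*, *Tagln*, *Cnn1* and *Acta2* form a bright block, and *Myocd* is bright with *Synpo2* (0.97) and *Myh11* (0.89) and dark with *Myl9* (0.07).

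The genes that followed *Myocd* were long ones. The exons of *Synpo2*, *Myh11* and *Myocd* span 13089, 7599 and 6424 bases, against 1162 to 2736 bases for *Myl9*, *Tagln*, *Acta2* and *Cnn1*. By the same measure of likeness, applied to *Myocd* after the values were seen, the closest genes outside the 10 were *Senp5*, *Kalrn*, *Dst*, *Utrn* and *Slit3* (r = 0.98 to 0.99 with group means subtracted), with a median of 17108 exon bases beside 4444 over all tested genes. Each library also had a share of reads assigned to no feature, and whether these include intron reads is not given here. This share ran from 7.26% to 9.84% in control, 6.26% to 10.4% in orchiectomized and 8.25% to 14.4% in DHT libraries. Over the 15 libraries it correlated with log2 CPM of *Myocd* at r = 0.53 (permutation P = 0.0536, adjusted over 10 genes 0.246) and rho = 0.66 (permutation P = 0.00933, adjusted 0.0466). For *Synpo2* these were r = 0.52 (permutation P = 0.0551, adjusted 0.246) and rho = 0.67 (permutation P = 0.00810, adjusted 0.0466), and for *Myh11* r = 0.485 (permutation P = 0.0737, adjusted 0.246) and rho = 0.60 (permutation P = 0.0204, adjusted 0.068). Only the rank correlations of *Myocd* and *Synpo2* thus passed adjustment at 0.05, which was made over 10 genes for r and rho apart. The permutations ignored the groups, so these P values mix differences between groups with variation within them. For *Tagln* they were r = 0.04 (permutation P = 0.883) and rho = 0.007 (permutation P = 0.985). Without DHT replicate 4 and orchiectomized replicate 3, the libraries farthest from the median share, r was 0.56 for *Myocd* and 0.51 for *Synpo2*. With group means subtracted, r was 0.54 for *Myocd*, 0.42 for *Synpo2* and 0.28 for *Myh11*, but -0.40 for *Tagln* and -0.43 for *Myl9*, given as a description. Groups of 5 were too small to repeat this within each group, and the part of RNA quality in the spread of *Myocd* was not tested.

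The profile most like the mean of the 8 structural genes, group differences included, was that of *Dmpk*, a protein kinase of muscle (r = 0.98), followed by *Unc45a*, a myosin chaperone, *Smarcd3*, a chromatin remodelling subunit, *Pdlim7* and *Dact3* (r = 0.97 to 0.98 over 15 libraries). With group means subtracted it was that of *Ptgis*, prostacyclin synthase (r = 0.98), followed by *Fhl1*, *Unc45a*, *Dstn* and *Dmpk*. After *Bvht*, the profiles most like *Carmn* were those of *Sfswap*, *Ppp1r12c*, *Adam11* and *2010111I01Rik* (r = 0.90 to 0.92). With group means subtracted they were *Rhbdf1*, *Efs*, *Adamtsl5* and *Cabin1* (r = 0.85 to 0.86). These genes were picked as the closest of 14121 and carry no test.

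Among 30 other genes of the contractile apparatus, all of which were tested, 3 were higher in DHT than in orchiectomized mice and none was lower, beside 2.46% of all tested genes called higher and 7.27% called lower. These were *Tpm2*, beta-tropomyosin (0.56, standard error 0.18), *Hspb6*, a small heat shock protein of muscle (0.45, standard error 0.15), and *Csrp1*, a LIM protein (0.48, standard error 0.16), with adjusted P values of 0.0882 to 0.1 from edgeR. *Tpm2* averaged 1362 CPM in orchiectomized and 2003 CPM in DHT aortas. Differences were positive for 29 of the 30, with a median of 0.270 beside -0.022 over all genes tested. The calls were not firm. Of 15 fits that left out 1 library each, *Tpm2* kept its call in 9, *Csrp1* in 6 and *Hspb6* in 11, and all 3 calls were lost without orchiectomized replicate 4 or DHT replicate 1, 2 or 3. *Tpm2* and *Csrp1* also lost theirs without orchiectomized replicates 2 and 3, and *Csrp1* without orchiectomized replicate 5 and control replicates 1 and 4.

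In DHT minus control, *Hspb6* was the only one of the 30 called (0.50, standard error 0.15, adjusted P = 0.221 from edgeR), beside 1.52% of all tested genes called higher, and its call was lost without control replicate 4 or 5 or DHT replicate 1 or 3. In orchiectomized minus control none of the 30 was called by edgeR, beside 2.08% of all tested genes called higher and 1.13% called lower, with a median of -0.065 beside 0.037 over all genes tested. *Des*, desmin, an intermediate filament gene that heart muscle also expresses, reached 859 CPM in orchiectomized replicate 2 and 154 to 235 CPM in the other orchiectomized aortas. Without that library *Des* was higher in DHT mice by 1.00 (standard error 0.20, adjusted P value 0.0206 from edgeR). In the same fit all 5 cardiac muscle markers were positive and none was called (median 2.21). *Des* was highest among the DHT aortas in replicates 2, 3 and 5, at 389, 475 and 425 CPM, where the cardiac muscle markers summed to 801, 342 and 798 CPM, against 155 and 142 CPM in replicates 1 and 4. Their part in the *Des* difference was not tested. This gene was singled out after its values were seen.

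Of 22 regulators of smooth muscle genes, 4 were lower in DHT than in orchiectomized mice and none was higher, beside 7.27% of all tested genes called lower. The median log2 difference of the 22 was 0.023 beside -0.022 over all genes tested. *Klf4* and *Klf5* encode factors that repress the contractile program or act in its modulation, *Elk3* encodes a partner of serum response factor that competes with myocardin, and *Tcf21* marks adventitial and modulated cells. *Klf4* averaged 88.7 CPM in orchiectomized and 59.4 CPM in DHT aortas (-0.58, standard error 0.17, adjusted P value 0.0668 from edgeR). *Elk3* differed by -0.32 (standard error 0.09), *Klf5* by -2.38 (standard error 0.73) and *Tcf21* by -2.83 (standard error 0.76), with adjusted P values of 0.0643, 0.0749 and 0.0452 from edgeR. All 4 calls were lost without orchiectomized replicate 2. Its *Tcf21* value was 46.4 CPM against 2.26 to 8.59 CPM in the rest of its group, and its *Klf5* value was 12.4 CPM against 0.646 to 2.88 CPM. Without it the differences were -0.37 for *Klf4*, -0.25 for *Elk3*, -1.18 for *Klf5* and -1.47 for *Tcf21*, with adjusted P values from 0.133 to 0.229 from edgeR. *Klf4* also lost its call without orchiectomized replicate 3 or 4 or DHT replicate 5, *Klf5* without DHT replicate 1, 3, 4 or 5, and *Elk3* without orchiectomized replicate 1 or DHT replicate 1, 4 or 5. *Srf* itself was not called in any comparison.

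Of 18 genes used as marks of modulated smooth muscle, 6 were lower in DHT than in orchiectomized mice and none was higher, beside 7.27% of all tested genes called lower. The median was -0.307 over the list and -0.022 over all genes tested. Differences were positive for 5 of the 18, the largest being 0.388 for *Cnn2*, so the list did not move 1 way. *Thbs1*, thrombospondin-1, fell from 196 CPM to 59.7 CPM (-1.72, standard error 0.29, adjusted P value 0.00841 from edgeR). *Lum*, the matrix proteoglycan lumican, fell from 192 CPM to 51.35 CPM (-1.90, standard error 0.27, adjusted P value 0.00360 from edgeR). *Vcam1*, an adhesion molecule, differed by -0.84 (standard error 0.17) and *Spp1*, osteopontin, by -1.62 (standard error 0.34), with adjusted P values of 0.0156 and 0.0200 from edgeR. *Col8a1*, a collagen of vessel walls, and *Lgals3*, galectin-3, were also called lower, the latter in 6 of the 15 fits that left out 1 library and the former, like the other 4, in all 15. *Lgals3* measured 149 CPM in orchiectomized replicate 2 and 28.2 to 53.5 CPM in the rest of its group, and without that library its difference was -0.44 (adjusted P = 0.155 from edgeR). *Lgals3* was named after its values were seen, and its call was also lost without orchiectomized replicate 1, control replicate 3 or 5 or any of the 5 DHT libraries. *Thbs1*, *Lum*, *Col8a1* and *Spp1* were the 4 of the 18 called lower in DHT than in control mice, beside 2.01% of all tested genes (-1.76, -1.43, -0.89 and -1.04), with adjusted P values of 0.0292, 0.0432, 0.0515 and 0.271 from edgeR, and *Spp1* kept its call in 8 of 15 fits, losing it without control replicate 1, 2, 3 or 4 or DHT replicate 1, 2 or 4. *Lum* and several others of this list are also expressed by fibroblasts.

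Markers of other cells moved between the same groups. The 5 endothelial markers summed to 603 to 936 CPM in control, 785 to 1110 CPM in orchiectomized and 479 to 644 CPM in DHT aortas, and 3 of 5 were called lower in DHT than in orchiectomized mice, beside 7.27% of all tested genes. The 5 fibroblast markers summed to 969 to 1430, 880 to 1720 and 543 to 832 CPM in the same order, again with 3 of 5 called lower, and 1 of these 5 markers is *Lum*, which also stands among the 18 genes above. The 5 mesothelial markers summed to 33.1 to 87.7, 43.5 to 356 and 7.18 to 22.2 CPM, with 5 of 5 called lower. In DHT minus control 3 of 5 endothelial, 3 of 5 fibroblast and 4 of 5 mesothelial markers were called lower, beside 2.01% of all tested genes. B cell markers summed to 3.28 to 7.93, 6.24 to 149 and 2.57 to 10.5 CPM, and T cell markers to 2.62 to 7.82, 5.49 to 39.7 and 3.16 to 6.42 CPM. All 5 B cell markers and the 4 T cell markers tested were called higher after orchiectomy, beside 2.08% of all tested genes, and lower in DHT than in orchiectomized mice. The B cell counts were 5 and 5 and the T cell counts 2 and 3 without orchiectomized replicate 2, beside 0.846% of all tested genes called higher after orchiectomy and 5.26% called lower with DHT in that fit. Macrophage markers reached 434, 400 and 292 CPM at most, and 2 of 5 were called lower in DHT than in orchiectomized mice, or 1 without orchiectomized replicate 2. The 5 pericyte markers summed to 2540 to 4330, 1360 to 4020 and 2950 to 4060 CPM, and none was called in any comparison. The part of these cells in the levels of the contractile genes was not tested.

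Markers of other muscle, fat, nerve and blood were also summed. Skeletal muscle markers summed to 28.4 to 450 CPM in control, 7.70 to 181 CPM in orchiectomized and 60.4 to 346 CPM in DHT aortas. Of the 5, 2 were called lower after orchiectomy and 2 higher in DHT than in orchiectomized mice, beside 1.13% and 2.46% of all tested genes, with a median of 2.80 in the latter comparison. These counts were 3 and 4 without orchiectomized replicate 2, beside 0.944% of all tested genes called lower and 3.13% called higher in that fit, and the latter median was 3.58. The part of skeletal muscle in the levels of the contractile genes was not tested. Of the 22 paralogs of the 10 genes, 21 were tested, and *Acta1*, skeletal muscle actin and itself 1 of these markers, was the only one called in any comparison, so in DHT minus orchiectomized the count was 1 of 21 beside 2.46% of all tested genes called higher and 7.27% called lower. It was higher in DHT than in orchiectomized mice by 3.33 (standard error 0.88, adjusted P value 0.0436 from edgeR) at 77.8 and 7.69 CPM. The difference was 3.58 without orchiectomized replicate 2 (standard error 0.99, adjusted P value 0.0655 from edgeR). The 5 adipocyte markers summed to 1500 to 4050, 1570 to 2930 and 1840 to 3650 CPM, and the 4 brown adipocyte markers to 1050 to 4380, 1030 to 2080 and 1490 to 4230 CPM in control, orchiectomized and DHT aortas. After orchiectomy the differences of all 9 were negative (medians -0.452 and -0.823), and 1 of each set was called lower, or 1 adipocyte and no brown adipocyte marker without orchiectomized replicate 2. In DHT minus orchiectomized 4 of 5 and 4 of 4 were positive (medians 0.431 and 0.708) and none was called. The part of fat in the levels of the contractile genes was not tested. Schwann cell markers summed to 53.4 to 205, 104 to 355 and 53.2 to 357 CPM, neutrophil markers to 2.44 to 4.02, 8.87 to 34.8 and 4.14 to 13.5 CPM. Of the 4 neutrophil markers tested, 3 were called higher after orchiectomy, 3 lower in DHT than in orchiectomized mice (1 without orchiectomized replicate 2) and 2 higher in DHT than in control mice, beside 2.08%, 7.27% and 1.52% of all tested genes. Of the erythroid markers 4 of 5 were at 0 in every library. Actins, myosins and calponins share stretches of sequence with their paralogs, and how the authors' counting treated reads that match several of them is not given in the sources used here.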

How the data were processed

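Polyadenylated RNA from whole aortas was sequenced, and the authors deposited 1 table of raw read counts per gene for each of 15 libraries. Per the labels, reads were mapped to mm10, and STAR, Cufflinks and DESeq2 are named without versions. The counting program, its annotation and its use of strand are not given in the sources used here. Reads assigned to no feature (6.26% to 14.4% of the rows' total per library) and ambiguous reads (1.34% to 1.97%) were left out. Groups and replicate numbers follow the sample titles, and nothing links mice of the same number.

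The analysis used edgeR 4.0.16 (R 4.3.3). Low genes were removed with filterByExpr, set to a minimum total of 15 and a minimum count of 10, libraries were scaled by TMM, and the quasi-likelihood method was applied with the 3 groups in 1 fit. Genes were called at P under 0.01, the study's threshold, with Benjamini-Hochberg values over the 14121 genes. Standard errors were taken as the log2 fold change over the square root of F. Log2 CPM used a prior count of 3, and CPM per kb used merged GENCODE vM21 exons. DESeq2 1.42.0, limma 3.58.1 and other settings served as alternatives. The scripts were tested on simulated counts. In each group all pairs of libraries differed by more than counting noise. Permutation tests were two-sided with 100000 permutations, which shuffled the libraries without regard to group.

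The 10 genes, the gene lists and the tests were chosen with earlier results of these data known. Named genes are the 10, up to 4 per direction and comparison with the smallest P values in the lists of contractile, regulator and modulated genes, paralogs with P under 0.01, and the 5 genes most like *Carmn* and the structural mean. A further gene of that rule is not reported here. Protein sequences and the promoters of *Tagln*, *Myh11*, *Myocd* and *Carmn* were not used here.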

Additional observations from a re-analysis of the deposited data

Results flagged for a closer look

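In groups of 5 aortas, a value was singled out when its gap to the nearest other value took more than 0.71 of the group's range, Dixon's 95% limit, which chance passes in about 1 of 20 groups. The values tested were those of the 10 genes, the called genes of the contractile, regulator and modulated lists, *Des*, *Acta1*, the 9 neighbours of *Carmn* and the summed cell markers, of which *Des*, *Acta1* and the neighbours were added after their values were seen. Of these 144 groups 15 passed, beside 7.2 expected by chance, and 9 of the 15 were orchiectomized replicate 2. None of the 30 groups of the 10 smooth muscle genes passed. In orchiectomized replicate 2 these were *Klf5* at 12.4 CPM, *Tcf21* at 46.4 CPM, *Lgals3* at 149 CPM, *Des* at 859 CPM, *Afap1l1* at 78.9 CPM, and the summed markers of endothelium at 1110 CPM, skeletal muscle at 181 CPM, cardiac muscle at 6550 CPM and mesothelium at 356 CPM. In control replicate 5 the cardiac muscle markers summed to 1270 CPM. In DHT replicate 2, *Tcf21* at 4.59 CPM and the mesothelial markers at 22.2 CPM stood above the rest of their group. *Mir143* at 4.44 CPM in DHT replicate 4, the neutrophil markers at 13.5 CPM in DHT replicate 5, and the erythroid markers at 75.1 CPM in DHT replicate 3, all of it *Alas2*, were the others. The causes were not tested.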

How the results depend on the processing

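Calls among the 10 genes and the 30 contractile genes were few, and their number moved with the settings; the causes were not tested. After orchiectomy the count of 1 among the 10 became 0 with limma voom and at an adjusted P value under 0.05, and 0 to 1 when 1 library was left out. The count of 0 among the 30 then ranged from 0 to 1. In DHT minus orchiectomized, the count of 2 among the 10 was 4 with DESeq2, 1 with the replicate number as a block and 1 at the adjusted threshold, and 1 to 5 with 1 library left out. The 10 genes were chosen with this comparison known, so these counts are a description. The count of 3 among the 30 was 1 with library totals only, 1 in a fit of the groups compared only, 1 with the replicate block and 0 at the adjusted threshold, and 0 to 7 with 1 library left out. In DHT minus control, the count of 1 among the 10 was 2 with DESeq2, library totals only, upper quartile factors or at least 10 counts in every library, 3 in a fit of the groups compared only, 4 with limma voom and 0 at the adjusted threshold, and 1 to 4 with 1 library left out. The count of 1 among the 30 was 5 with DESeq2, 2 with library totals only or at least 10 counts in every library, 6 in a fit of the groups compared only, 5 with limma voom and 0 at the adjusted threshold, and 0 to 4 with 1 library left out. The shares of all tested genes called under these settings are not given here. A higher count can therefore not be told apart from a setting that calls more genes. *Carmn* kept its direction in every comparison under all 25 alternatives, from 1.40 to 1.58 in DHT minus orchiectomized, 0.70 to 0.97 in DHT minus control and -0.82 to -0.49 after orchiectomy. It was chosen for its difference between DHT and orchiectomized mice, and all fits use the same libraries, so the kept direction is no test. Same-numbered libraries did not deviate together (r of -0.466 to 0.463, above 0.1 in 5 of 15 pairs), so the block carries no pairing of mice.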
